A study of Caenorhabditis elegans with 24 samples.

Results

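Messenger RNA of a metl-5 mutant was compared with that of wild type in adult Caenorhabditis elegans kept at 20 °C. The comparison rested on 6 of the 24 libraries of the study, 3 of the metl-5 mutant and 3 of wild type (WT), taken by their labels. All genes were considered. Of 19669 genes in the files, 17158 had at least 1 count at 20 °C, and the 13315 that passed a filter on low counts were tested. The mutant is labelled deltaC38delta4.9, a deletion of the gene C38D4.9, also named metl-5, and the wild type is the laboratory strain N2. Besides its strain and its temperature a library carries no label of age within adulthood, of sex or of culture. The sources used here say neither whether the deletion was outcrossed nor how many lines carry it. The study also has mRNA of both strains at 37 °C, and ribosome footprints of both strains and temperatures. Separate cultures for the replicates are not stated, and the p-values then measure only how these libraries spread, which may be technical.

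METL-5 is the worm member of a family of methyltransferases that place a methyl group on the N6 position of an adenosine in the RNA of the small ribosomal subunit. The mark is made on ribosomal RNA and not on the messengers counted here. The comparison asks which messengers differ in level when the gene is deleted and the animals are kept at 20 °C.

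The mRNA libraries held 15630003 to 17239906 gene counts each. An mRNA level is given as counts per 1000000 gene counts of a library, scaled with TMM (CPM), and values of a gene are listed for replicates 1, 2 and 3 in that order. Same-numbered libraries of the 2 strains deviated from their group means together in replicates 2 and 3, with correlations across genes of 0.479 and 0.514. For replicate 1 the correlation was 0.146, no better than the 0.157 of metl-5 replicate 1 with WT replicate 2. Each metl-5 library was compared with the WT library of its number. The median gene differed between libraries of a pair by 0.222 to 0.422 on the log2 scale, against 0.261 to 0.483 between metl-5 replicates and 0.497 to 0.638 between WT replicates. WT replicate 1 stood apart in its cuticle collagens named for body shape mutants. Their summed level was 632, 660 and 1135 CPM in metl-5 worms, against 2678, 727 and 992 CPM in WT worms. All cuticle collagens summed to 54331, 34749 and 44436 CPM in metl-5 worms and 70195, 35443 and 38801 CPM in WT worms. In that sum replicate 1 was the highest of each strain. Yolk protein mRNA, a mark of the adult hermaphrodite, was abundant in both strains, with vit-2 at 4466, 3586 and 3831 CPM in metl-5 worms and 3384, 3070 and 3714 CPM in WT worms. The heat-inducible chaperone gene hsp-70 was low in both strains, at 6.59, 7.61 and 8.71 CPM in metl-5 worms and 5.44, 3.59 and 9.30 CPM in WT worms. All values are relative to the other messengers of a library, and in whole worms fewer cells of a type cannot be told apart from less RNA per cell.

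The deleted gene itself was lower in every mutant library. It lies on the plus strand of chromosome III from 4803007 to 4804753 (WBcel235, the build of all positions given here). It had 41, 37 and 36 counts in metl-5 worms, against 164, 164 and 106 counts in WT worms. Its level was 2.15, 1.51 and 1.89 CPM in metl-5 worms and 9.30, 8.07 and 5.73 CPM in WT worms, and the groups did not overlap. The log2 difference was −2.04 ± 0.323 (SE), with an adjusted p of 0.00391 in edgeR's quasi-likelihood test. Differences in the 3 pairs were −2.06, −2.33 and −1.54. Without pair 2 the adjusted p was 0.192, and it was below the threshold without pair 1 or pair 3. Reads therefore remained on the gene in the mutant. metl-5 overlaps pal-1, a homeobox gene on the opposite strand. The mRNA counts do not use strand. Reads that were ambiguous between genes were left out, and the strand of any other mRNA read in the overlap is unknown. Ribosome footprints at 20 °C, counted on the strand of the gene, also remained on metl-5. They numbered 15, 29 and 12 counts in metl-5 worms and 124, 57 and 93 counts in WT worms. The 29 counts are of a footprint library that stood apart in other genes. Where the remaining reads came from was not tested. The level of pal-1 was 73.7, 90.4 and 66.3 CPM in metl-5 worms and 51.8, 105 and 75.5 CPM in WT worms. These ranges overlapped, with a log2 difference of 0.03 (adjusted p = 1). Of the 57 tested genes within 100 kb of metl-5, 1 had an unadjusted p under 0.05 and 0 were called by edgeR.

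Across the genome 15 of 13315 genes were called at an adjusted p under 0.05, which is 0.113% of those tested. Of these, 8 were higher in metl-5 worms (0.0601%) and 7 were lower (0.0526%). All 15 differed in the same direction in all 3 pairs, as did 21.6% of all genes. In 12 of the 15 the groups did not overlap, as in 4.15% of all genes, but both measures come from the contrast that called them. Without the replicate block 4 of the 15 were called, all of them genes with reads in 1 strain almost alone. Without pair 1, which holds the WT library that stood apart, 19 genes were called and 14 of them are among the 15. The genes fall into a set with reads in 1 strain almost alone, a pair of neighbouring cuticle collagens, the deleted gene, a cytochrome P450 gene, 2 genes of nematode-specific peptide families and 5 others. The unadjusted p was under 0.05 for 652 genes (4.9%), 195 higher (1.46%) and 457 lower (3.43%). In the authors' deposited table for this comparison 8 of 12583 genes had an adjusted p under 0.05 (0.0636%), and all 8 are among the 15 called here. The 7 that the authors' deposited table does not call are col-93, sax-2, nspa-5, C37C3.2, col-94, nspd-6 and smd-1.

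**Figure D1:**
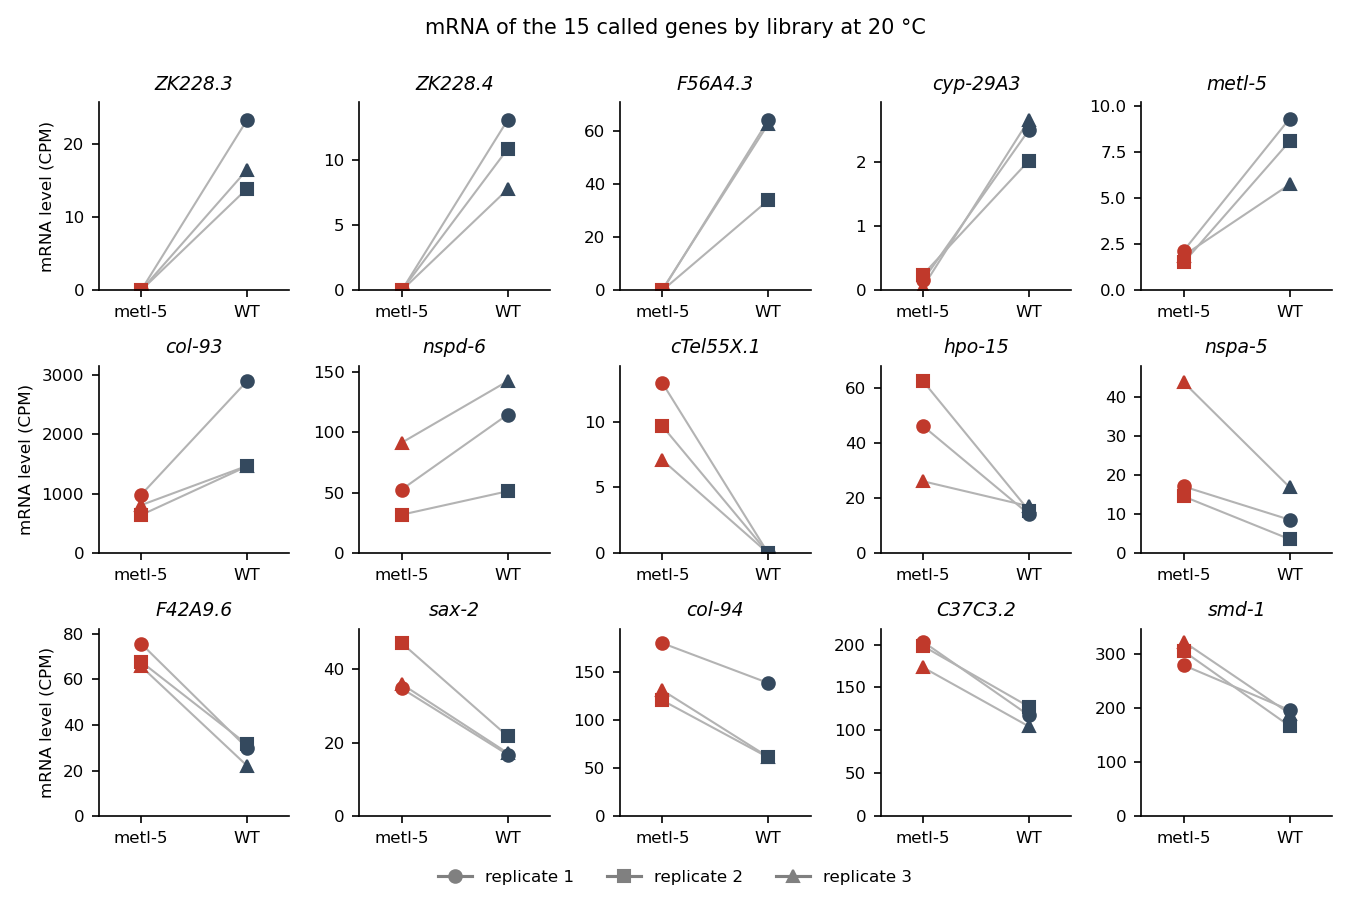
mRNA level in CPM (vertical axes, from 0) of the 15 called genes in each metl-5 library (red, left) and WT library (dark, right) at 20 °C, with grey lines joining same-numbered libraries. Genes lower in metl-5 worms come first, from ZK228.3 to nspd-6, and every line of a gene slopes the same way.

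The most extreme differences lay in 4 genes that had reads in 1 strain almost alone. ZK228.3 (chromosome V, 18458241 to 18461250) had 0, 0 and 0 counts in metl-5 worms and 410, 282 and 304 counts in WT worms. Its neighbour ZK228.4 (V, 18462787 to 18465426) had 0, 0 and 0 counts in metl-5 worms and 230, 220 and 143 counts in WT worms. The annotation places 0 protein-coding genes between them, so these are adjacent genes that were both without a read in the mutant. cTel55X.1 (X, 17714961 to 17718726) showed the opposite, with 247, 236 and 135 counts in metl-5 worms and 0, 0 and 0 counts in WT worms. It is the last annotated protein-coding gene at the right end of chromosome X. Taking 3 counts summed over the empty group as the limit, cTel55X.1 was at least 186-fold higher in metl-5 worms. By the same limit the fall was at least 219-fold for ZK228.4 and at least 368-fold for ZK228.3.

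F56A4.3 (V, 2453414 to 2456147) had 0, 0 and 6 counts in metl-5 worms, against 1129, 689 and 1156 counts in WT worms. It fell by 9.002 ± 0.459 on the log2 scale (edgeR adjusted p = 5.26e-11). Without pair 3, which holds the 6 mutant counts, the log2 difference was −12.59, a value that depends on how zeros are handled. At 37 °C these genes kept to the same strain. ZK228.3 had 0 counts over the metl-5 libraries and 664 over the WT libraries, ZK228.4 had 0 in metl-5 worms and 448 in WT worms, and cTel55X.1 had 502 in metl-5 worms and 0 in WT worms. F56A4.3 had 4 counts over the metl-5 libraries at 37 °C and 1180 over the WT libraries. These 4 calls were kept in each of the 21 alternatives tried.

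The cuticle of the worm is built of collagens encoded by a large gene family, in which most members are named col-. Of 125 tested col- genes, 1 was called higher and 1 lower in metl-5 worms, and these 2 lie next to each other. col-93 (III, 10984552 to 10985609) was at 984, 645 and 812 CPM in metl-5 worms, against 2897, 1464 and 1472 CPM in WT worms. Every mutant library was below every WT library. The fall of col-93 was −1.20 ± 0.132 on the log2 scale (adjusted p = 2.2e-05, edgeR), with −1.56, −1.18 and −0.86 in the pairs. col-94 (III, 10986808 to 10987873) was at 180, 121 and 131 CPM in metl-5 worms, against 139, 61.3 and 61.8 CPM in WT worms. Its groups overlapped through WT replicate 1, but within each pair the mutant was higher, by 0.38, 0.98 and 1.08. The log2 difference of col-94 was 0.81 ± 0.157 (adjusted p = 0.0403), and its adjusted p was 0.514 without pair 2 and 0.242 without pair 3. col-93 remained called in each of these fits, but not without the replicate block.

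The remaining collagen gene of this row, col-92 (III, 10982139 to 10983253), lay at 516, 309 and 391 CPM in metl-5 worms and at 433, 156 and 202 CPM in WT worms. It missed the threshold, with a log2 difference of 0.73 ± 0.159 (adjusted p = 0.0967). The 3 genes were therefore looked at together, a choice made after their values were seen. col-93 made up 58.6, 60.02 and 60.8% of the summed CPM of col-92, col-93 and col-94 in metl-5 worms, and 83.5, 87.1 and 84.8% in WT worms. At 37 °C its share was 57.1, 55.97 and 53.8% in metl-5 worms and 72.7, 75.8 and 75.4% in WT worms. Among footprints at 20 °C the share was 38.4, 39.0 and 37.4% in metl-5 worms and 76.4, 63.8 and 64.5% in WT worms. In each of these sets the 3 mutant libraries lay within a few percent of each other and below the 3 WT libraries. The 3 genes share a family, the counting left out reads that map to several places, and all 3 lie within dhc-4 on the opposite strand. How reads were divided among them was not tested. Their summed level was 1680, 1074 and 1334 CPM in metl-5 worms and 3469, 1682 and 1736 CPM in WT worms, lower in the mutant of each pair.

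**Figure D2:**
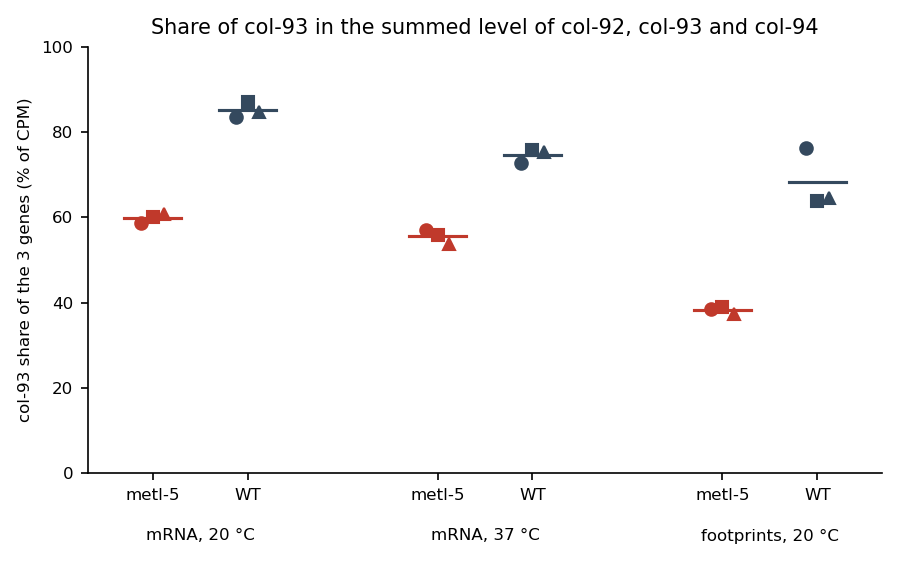
Share of col-93 in the summed CPM of col-92, col-93 and col-94 (vertical axis, percent), by library, for mRNA at 20 °C, mRNA at 37 °C and footprints at 20 °C. Points are libraries (circle, square and triangle for replicates 1, 2 and 3), horizontal bars are group means, and the metl-5 points (left of each set) lie below all WT points.

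The cytochrome P450 gene cyp-29A3 fell in the mutant. P450s are oxidases of fatty acids, sterols and foreign compounds. cyp-29A3 (V, 59239 to 63633) had 3, 6 and 1 counts in metl-5 worms, against 44, 41 and 49 counts in WT worms. Its level was 0.157, 0.245 and 0.0524 CPM in metl-5 worms and 2.49, 2.02 and 2.65 CPM in WT worms, with no overlap. The log2 difference was −3.88 ± 0.553 (edgeR adjusted p = 0.000965), and it remained called without any 1 of the pairs. With so few counts in the mutant the size of the fall is not precise. Of 43 tested P450 genes cyp-29A3 alone was called, and the median log2 difference of the family was −0.02, beside −0.005 for all genes. The member next in p was cyp-14A5, at 5.02, 5.77 and 9.13 CPM in metl-5 worms and 4.31, 2.26 and 4.003 CPM in WT worms (0.92, adjusted p = 0.794). cyp-29A2, of the same subfamily as cyp-29A3 and named after its values were seen, had a log2 difference of −0.44 (adjusted p = 1), with overlapping groups.

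Several genes with moderate levels were higher in metl-5 worms. F42A9.6 (IV, 8609234 to 8611627) was at 75.6, 67.7 and 65.7 CPM in metl-5 worms, against 29.98, 31.5 and 22.2 CPM in WT worms. The lowest mutant library was above the highest WT library, with a log2 difference of 1.33 ± 0.17 (adjusted p = 0.000222). hpo-15 (V, 5509930 to 5513830), named for sensitivity to bacterial pore-forming toxins, was at 46.3, 62.6 and 26.2 CPM in metl-5 worms, against 14.2, 15.5 and 17.1 CPM in WT worms. It rose by 1.45 ± 0.201 (adjusted p = 0.000684), with 1.69 and 2.002 in pairs 1 and 2 and 0.61 in pair 3. The adjusted p of hpo-15 was 0.128 without pair 2 and 0.106 with 1 replicate block shared over both temperatures. On the opposite strand F42A9.6 overlaps F42A9.17 and hpo-15 overlaps nhr-47. Ambiguous reads of such overlaps were left out, and the strand of any other mRNA read there is unknown.

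sax-2 (III, 5109701 to 5130676) encodes a large conserved protein related to Furry of Drosophila that is needed for the normal shape of neurons. It was at 34.8, 47.2 and 36.03 CPM in metl-5 worms, against 16.8, 21.8 and 17.3 CPM in WT worms. The difference was even across the pairs, at 1.04, 1.11 and 1.06, with a fitted value of 1.07 ± 0.188 (adjusted p = 0.0138). Among the 232 tested genes within 500 kb of metl-5 it was the 1 that was called, and 8 of them (3.45%) had an unadjusted p under 0.05.

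smd-1 (I, 14048094 to 14051010) encodes S-adenosylmethionine decarboxylase, an enzyme of polyamine synthesis that uses the same compound that serves methyltransferases as methyl donor. It was at 279, 305 and 323 CPM in metl-5 worms, against 196, 167 and 190 CPM in WT worms, without overlap (0.71 ± 0.141, adjusted p = 0.0438). It overlaps F47G4.14 on its own strand. C37C3.2 (V, 7855944 to 7857948) was at 203, 198 and 173 CPM in metl-5 worms, against 117, 128 and 105 CPM in WT worms (0.72 ± 0.133, adjusted p = 0.0236). C37C3.18 overlaps it on the same strand. These moderate rises were called without pair 1, with adjusted p of 0.0263 for sax-2, 0.0134 for smd-1 and 0.0203 for C37C3.2, but not without pair 2 or pair 3. Without pair 2 the adjusted p was 0.315 for sax-2, 0.514 for smd-1 and 0.192 for C37C3.2, and without pair 3 it was 0.114, 0.155 and 0.103 for the same genes. In each of these fits the direction was kept.

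The remaining calls were nspa-5, which was higher, and nspd-6, which was lower, both of families of short nematode-specific peptides. nspa-5 (WBGene00013887; V, 14878348 to 14878452) was at 17.1, 14.6 and 43.7 CPM in metl-5 worms, against 8.61, 3.64 and 16.9 CPM in WT worms. nspd-6 (IV, 5165511 to 5165726) was at 52.8, 31.98 and 91.5 CPM in metl-5 worms, against 115, 51.4 and 142 CPM in WT worms. For both genes the groups overlapped and replicates of a strain differed widely, while each pair had the same direction. The log2 difference was 1.44 ± 0.26 for nspa-5 (adjusted p = 0.0195) and −0.81 ± 0.159 for nspd-6 (adjusted p = 0.0429, edgeR). For nspa-5 the adjusted p was 0.482 without pair 2 and 0.153 without pair 3, and for nspd-6 it was 0.358, 0.255 and 0.139 without pairs 1, 2 and 3. Both families hold similar copies, and a further gene ID of the files carries the symbol nspa-5, so the division of reads among copies is uncertain.

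The mRNA libraries at 37 °C are other libraries of the same strains, fitted in the same model with a shared estimate of the spread. Of the 15 genes called at 20 °C, 14 had an unadjusted p under 0.05 at 37 °C, beside 7.04% of all genes, and 8 were called there, beside 13 of 13315 (0.0976%). For 14 of the 15 the 3 pairs at 37 °C all had the direction seen at 20 °C, while 32.8% of all genes had 1 direction in the 3 pairs there. F42A9.6 averaged 65.3 ± 18.4 CPM in metl-5 worms and 25.03 ± 1.76 CPM in WT worms at 37 °C (SD, n = 3 each), a log2 difference of 1.35 (adjusted p = 0.000294). For sax-2 the value was 1.005 (adjusted p = 0.0467), for hpo-15 it was 0.97 (0.0485) and for col-93 it was −0.81 (0.00682). metl-5 itself was at −1.38 (0.142) and cyp-29A3 at −2.07 (0.0892), and these edgeR values missed the threshold. smd-1 had the smallest difference at 37 °C, 0.24 (adjusted p = 0.775).

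Of the 11 called genes with at least 10 counts in each strain, 10 had a smaller difference at 37 °C than at 20 °C, F42A9.6 being the exception. The genes were chosen on their values at 20 °C, so this count is no test of the temperatures. The difference between the effects at the 2 temperatures was called for 0 genes by edgeR, with 264 genes at an unadjusted p under 0.05 (1.98%). Among the 15 genes that unadjusted p was 0.018 for cyp-29A3, 0.0258 for smd-1 and 0.043 for col-93, each with an adjusted p of 1.

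**Figure D3:**
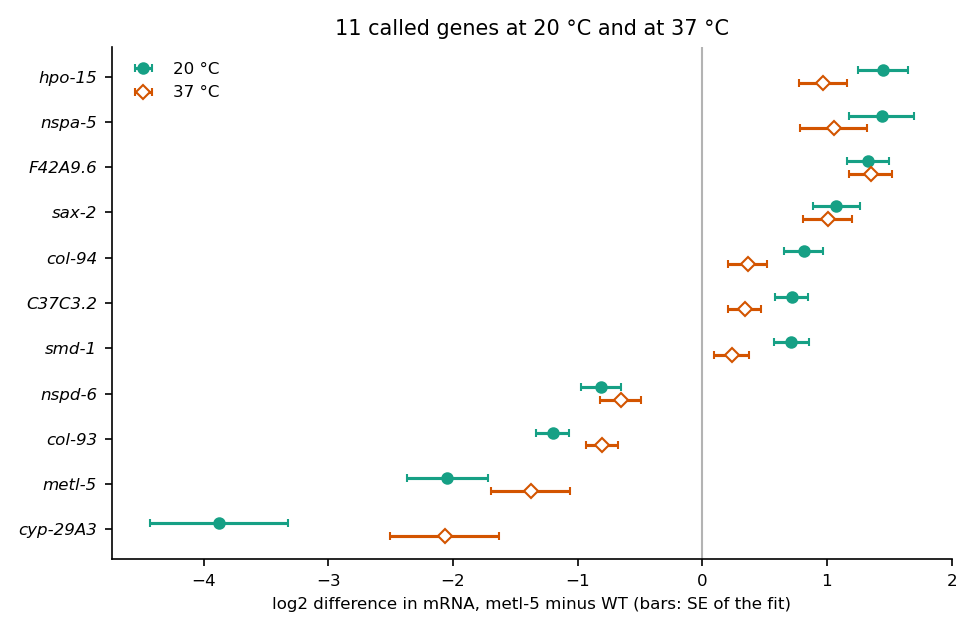
Log2 difference in mRNA between metl-5 and WT worms (horizontal axis, bars are the SE of the fit) at 20 °C (filled circles) and at 37 °C (open diamonds) for the 11 called genes with at least 10 counts in each strain. The 2 values of each gene lie on the same side of 0, from hpo-15 at 1.45 to cyp-29A3 at −3.88 at 20 °C.

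Ribosome footprints at 20 °C gave a further readout of the same genes, described here with no test. A pair of these libraries stood apart. Footprints of metl-5 replicate 2 held hsp-70 at 5083 CPM, against 25.5 and 10.8 CPM in metl-5 replicates 1 and 3, and WT replicate 2 held 147 footprint counts of cTel55X.1, which was at 0 in WT replicates 1 and 3. For 10 of the 15 called genes the footprint groups did not overlap and differed in the direction of the mRNA, while 3.73% of all genes had footprint groups that did not overlap (1.34% higher and 2.38% lower). Without replicate 2 of each strain the count was 14 of 15, beside 22.5% of all genes. Footprints of col-94 were at 540, 338 and 446 CPM in metl-5 worms and 251, 225 and 265 CPM in WT worms, and thus did not overlap as its mRNA did. Those of hpo-15 were at 125, 149 and 179 CPM in metl-5 worms and 42.8, 84.1 and 90.1 CPM in WT worms. cyp-29A3 footprints were at 0.322, 0.171 and 0.174 CPM in metl-5 worms and 7.42, 3.89 and 4.998 CPM in WT worms. Footprints of smd-1 overlapped between the strains, at 137, 176 and 133 CPM in metl-5 worms and 104.5, 175 and 72.7 CPM in WT worms. This overlap came from WT replicate 2, of the pair that stood apart. In replicates 1 and 3 the metl-5 footprints of smd-1 were above those of WT, the direction of its mRNA.

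The 12 genes next in p, among those with a symbol and a mean log2 CPM of at least 1, did not pass the threshold and are given as values. The higher ones in metl-5 worms were C09E7.7, T19E7.6, col-92, Y54F10AM.11, T20F7.1 and lips-15. C09E7.7 was even within each strain, at 53.9, 53.5 and 51.1 CPM in metl-5 worms and 29.2, 30.6 and 29.8 CPM in WT worms (0.82, adjusted p = 0.0689). T19E7.6 was at 3.82, 3.89 and 3.57 CPM in metl-5 worms and 0.907, 1.23 and 0.757 CPM in WT worms (1.97, adjusted p = 0.0798). T20F7.1 was at 12.5, 17.5 and 4.83 CPM in metl-5 worms and 3.74, 6.84 and 2.70 CPM in WT worms (1.32, adjusted p = 0.115). At 37 °C both T19E7.6 (2.52, adjusted p = 0.00986) and T20F7.1 (1.95, adjusted p = 0.00678) were called higher by edgeR. Y54F10AM.11 had 0.90 at 20 °C (adjusted p = 0.114) and was called at 37 °C (1.03, adjusted p = 0.0485). lips-15, of a family related to lipases, had 0.81 (adjusted p = 0.154).

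Those lower were mtl-2, his-70, cnc-4, msp-63, C35E7.9 and nlp-34. mtl-2 encodes a metallothionein, a small metal-binding protein of the intestine, and was at 204, 78.7 and 94.5 CPM in metl-5 worms and 382, 138 and 130 CPM in WT worms (−0.73, adjusted p = 0.0664). cnc-4, an antimicrobial peptide gene, was at 6.23, 9.24 and 11.3 CPM in metl-5 worms and 19.3, 11.95 and 20.9 CPM in WT worms (−0.95, adjusted p = 0.0938). The groups of cnc-4 did not overlap, and those of mtl-2 did. The histone gene his-70 was at −1.02 (adjusted p = 0.0811), the major sperm protein gene msp-63 at −1.03 (0.114), C35E7.9 at −0.67 (0.167) and the peptide gene nlp-34 at −0.89 (0.197). For each of the 12 genes the 3 pairs had the same direction, as in 21.6% of all genes, but the 12 were picked by p in the same pairs.

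Messengers of the cytosolic ribosome, the particle on which METL-5 acts, leaned lower in metl-5 worms without any single gene being called. Of 76 tested ribosomal protein genes, 75 had a negative log2 difference, beside 6770 of 13315 for all genes. In that direction 71 of the 76 had an unadjusted p under 0.05, beside 3.43% of all genes. At an adjusted p under 0.05 edgeR called 0 of these ribosomal protein genes. Their median log2 difference was −0.32, beside −0.005 for all genes. Summed over the family, their level was 180000, 132943 and 210356 CPM in metl-5 worms and 244536, 185819 and 217295 CPM in WT worms. The summed level was lower in the mutant of each pair, although metl-5 replicate 3 was above WT replicate 2. Medians in the 3 pairs were −0.42, −0.48 and −0.04, so the difference was near 0 in pair 3. rpl-28, of the large subunit, was at 1454, 1024 and 1771 CPM in metl-5 worms and 2149, 1579 and 1915 CPM in WT worms (−0.43, adjusted p = 0.523). rpl-24.1 was at −0.40 (adjusted p = 0.526) and is 1 of 7 members whose groups did not overlap in the lower direction, beside 1.99% of all genes. For the small subunit, rps-29 was at −0.44 (0.603) and rps-14 at −0.39 (0.656). Footprints of these named genes at 20 °C overlapped between the strains. The log2 ratio of mean footprint CPM, unscaled, was −0.08 for rpl-28, −0.12 for rpl-24.1, −0.02 for rps-29 and −0.04 for rps-14.

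The count of 71 rested on the pairing and on pairs 1 and 2. Without the replicate block 0 members had an unadjusted p under 0.05, while the median was −0.30. With the block the number was 19 without pair 1 (median −0.25), 14 without pair 2 (−0.23) and 74 without pair 3 (−0.44). It was 17 with 1 block shared over both temperatures, 46 with upper-quartile scaling and 47 with the 20 °C libraries alone, with medians of −0.32, −0.32 and −0.29. At 37 °C the median was −0.07, and 2 members had an unadjusted p under 0.05 in the lower direction, beside 4.28% of all genes.

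Other groups of genes used by most cells leaned the same way by less. Among all genes 6770 of 13315 were negative. Of 69 mitochondrial ribosomal protein genes, 66 were negative with a median of −0.18, and 1, mrps-23 (−0.34, adjusted p = 1), had an unadjusted p under 0.05. The 67 genes of oxidative phosphorylation, the respiratory chain of mitochondria, had a median of −0.20 and 14 members lower at an unadjusted p under 0.05, among them cyc-2.2, a cytochrome c (−0.58, adjusted p = 0.567), and cox-4, of complex IV (−0.32, 0.87). For oxidative phosphorylation the number was 0 without the block, 2 with the shared block, 1 with the 20 °C libraries alone and 5 with the length trend removed (median −0.14). It was 3 without pair 1, 1 without pair 2 and 22 without pair 3. The 33 proteasome genes had a median of −0.19 and 2 members lower at an unadjusted p under 0.05, pas-4 at −0.34 (0.87) and pbs-6 at −0.31 (0.922). In none of these 3 lists was a member called by edgeR, and the median of pair 3 was −0.05 for mitochondrial ribosomal proteins, −0.02 for oxidative phosphorylation and −0.16 for the proteasome. Genes of translation outside the ribosome differed from list to list. The 8 tested elongation and release factor genes had a median of −0.15, with −0.17, −0.25 and 0.02 in pairs 1, 2 and 3 and 6 of 8 negative, and 0 had an unadjusted p under 0.05 in edgeR's test. The 33 listed initiation factor genes had a median of −0.03, the 29 aminoacyl-tRNA synthetase genes 0.01, and the 38 genes of ribosome assembly and the nucleolus −0.05. The lists were matched by gene symbol, so factors under other symbols, such as names of the form C37C3.2, can be missing from them. C37C3.2 itself, called higher in metl-5 worms, was in none of these lists, so their medians and counts say nothing of it.

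Differences moved with the length of the gene. Genes with up to 400 bases of exon had a median log2 difference of −0.21 (597 genes), and those with 3001 bases or more had 0.11 (1464 genes). In pair 1 the medians of these bins were −0.55 and 0.24, in pair 2 −0.17 and 0.12, and in pair 3 0.03 and −0.02. The median ribosomal protein gene had 520.5 bases of exon, against 1329 for all genes. With the length trend of each library removed, an alternative chosen after seeing the data, the median of the ribosomal proteins was −0.21 and 43 of 76 had an unadjusted p under 0.05 in the lower direction. The same fit called 14 genes, of which 12 were among the 15, and left out sax-2 (adjusted p = 0.145), nspd-6 (0.46) and smd-1 (0.114).

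**Figure D4:**
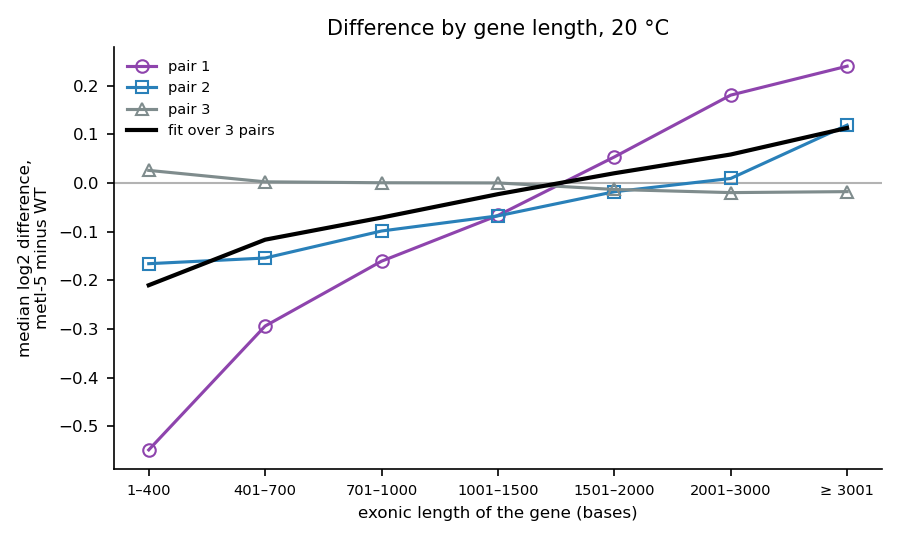
Median log2 difference between metl-5 and WT worms at 20 °C (vertical axis) for genes binned by exonic length (horizontal axis, bases), in each same-numbered pair and in the fit over 3 pairs. The line of pair 1 climbs from −0.55 to 0.24, that of pair 2 from −0.17 to 0.12, and that of pair 3 stays near 0.

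Sperm genes were a further group of short messengers on the lower side. Of 88 tested genes for major sperm proteins and other sperm proteins, 28 had an unadjusted p under 0.05 in the lower direction and 1, nspd-6, was called. Their median was −0.30, with −0.65, −0.23 and −0.02 in pairs 1, 2 and 3. With the length trend removed the median was −0.16, with 11 such members. Without the replicate block 1 member had such a p, and without pair 1 the number was 4 and the median −0.11. Their summed level was 9031, 5442 and 16628 CPM in metl-5 worms and 13968, 6467 and 16798 CPM in WT worms. Replicates of a strain thus differed in sperm messengers by more than the strains did. Oocyte and germline genes lay on the other side of 0, with medians of 0.05 for 24 oocyte and eggshell genes and 0.05 for 32 germline and P granule genes. In these lists pair 1 was positive (0.43 and 0.38) and pairs 2 and 3 were negative. perm-2, of the eggshell, was at 0.33 (adjusted p = 0.872), and 7 yolk protein and yolk receptor genes had a median of 0.12.

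As a family, cuticle collagens did not hold 1 direction across pairs. The 125 col- genes had a median of −0.25, made up of −1.17 in pair 1, 0.07 in pair 2 and 0.23 in pair 3. The 19 collagens named for body shape mutants had −0.63, made up of −2.26, 0.08 and 0.16. dpy-5 was at 122, 111 and 217 CPM in metl-5 worms and 490, 139 and 194 CPM in WT worms (−0.71, adjusted p = 0.888). sqt-1 was at 24.2, 29.4 and 44.0 CPM in metl-5 worms and 142, 30.8 and 45.3 CPM in WT worms (−0.85, adjusted p = 0.898). For both genes WT replicate 1 was far above each of the other libraries. Without pair 1 the median was 0.15 for the col- genes and 0.08 for the body shape collagens. The 39 antimicrobial peptide genes behaved alike, with a median of −0.30 made up of −0.93, 0.11 and 0.04.

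**Figure D5:**
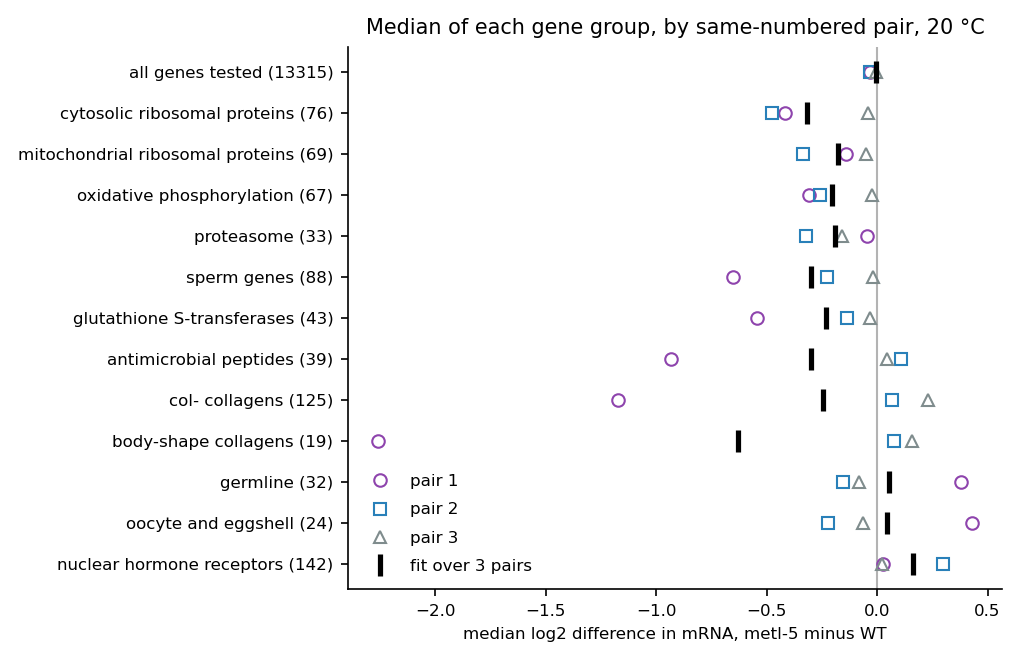
Median log2 difference between metl-5 and WT worms at 20 °C (horizontal axis) of gene groups (number of tested genes in brackets), in each same-numbered pair (open symbols) and in the fit over 3 pairs (black bars). Cytosolic ribosomal proteins lie at −0.42, −0.48 and −0.04, while body-shape collagens lie at −2.26 in pair 1 and above 0 in the other pairs.

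Enzymes that place methyl groups on nucleic acids, other than metl-5, gave no call. Of 30 tested methyltransferase and demethylase genes metl-5 alone was called, and the median was −0.01. metl-18, next in p, was at 18.4, 15.1 and 20.7 CPM in metl-5 worms and 24.4, 25.5 and 20.4 CPM in WT worms (−0.38, adjusted p = 1). The 13 genes of the S-adenosylmethionine and one-carbon cycle, which make the methyl donor, had a median of 0.01, with cbs-2 at −0.76 (adjusted p = 0.821). Of 43 glutathione S-transferase genes 7 were lower and 2 higher at an unadjusted p under 0.05, with a median of −0.23 and 0 called. Their medians in pairs 1, 2 and 3 were −0.54, −0.14 and −0.03. Without pair 1 the median was −0.04 and 2 members were lower at that p, with the shared block 3 were, and without the block 0 were. Of the family gst-5 was at −0.57 (adjusted p = 0.354) and gst-26 at −0.50 (0.725). The 26 heat shock chaperone genes had a median of 0.03, with 2 higher at an unadjusted p under 0.05 and 0 called.

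The lists for intestine, body wall muscle, neurons and hypodermis showed no call. Medians were −0.16 for 25 intestine genes, 0.04 for 29 body wall muscle genes, 0.07 for 21 neuron genes and 0.01 for 8 hypodermis genes. In the intestine list 5 genes were lower at an unadjusted p under 0.05, among them mtl-2 and the protease gene cpr-1 (−0.53, adjusted p = 0.489), and 1 was higher. The medians of the intestine list in pairs 1, 2 and 3 were −0.54, 0.06 and −0.05, so its lean came from pair 1, which holds the WT library that stood apart. Of 28 lysozyme and saposin-like genes 5 were lower at an unadjusted p under 0.05 and 0 were called. Their median of −0.17 was made up of −0.54, −0.04 and 0.03 in the pairs. The lysozyme gene lys-4 was at 28.4, 42.3 and 34.4 CPM in metl-5 worms and 77.4, 51.0 and 47.4 CPM in WT worms, without overlap (−0.72, adjusted p = 0.489). The 142 nuclear hormone receptor genes, ligand-regulated transcription factors, had a median of 0.16. Of them 100 were positive, beside 6545 of 13315 for all genes. An unadjusted p under 0.05 was seen for 0 of these receptor genes. Their medians in pairs 1, 2 and 3 were 0.03, 0.30 and 0.02, so this lean came mostly from pair 2. At 37 °C their median was 0.01.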

How the data were processed

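The authors deposited whole-number counts per gene, 1 file per library. The submitters' processing notes name STAR and DESeq2 with no version, and no source used here names the files' build. Positions are those of WBcel235 (19568 of 19669 gene IDs found; 19332 have a symbol). The stranded counts of mRNA libraries put 50.5 to 50.9% of reads on the gene strand, so unstranded counts were used for mRNA, and sense-strand counts for footprints. Unmapped, multiply mapped, unannotated and ambiguous reads, 19.5 to 25.9% of an mRNA library at 20 °C, were left out.

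After a filter on low counts (filterByExpr), edgeR 4.0.16 (R 4.3.3) with TMM scaling and its quasi-likelihood test was run on all 12 mRNA libraries, with 6 blocks of replicate number within temperature and a strain effect at each temperature, which left 4 residual degrees of freedom. P-values were adjusted after Benjamini and Hochberg over 13315 genes, and an adjusted p under 0.05 was called. The code was tested on simulated data. Differences in single pairs are of log2 CPM with a prior count of 2. Footprint CPM are per 1000000 sense counts, unscaled.

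The labels do not say that replicate numbers pair libraries. Deviations from group means correlated across genes at 0.146, 0.479 and 0.514 for same-numbered libraries at 20 °C, between −0.473 and 0.157 for others, and at 0.220, 0.490 and 0.324 at 37 °C. metl-5 replicate 1 thus correlated no better with WT replicate 1 than with WT replicate 2. The biological coefficient of variation was 22.4% with the block and 36.4% without it.

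The authors' deposited tables of comparisons hold log2 fold changes with raw and adjusted p-values, and a base mean, a signal averaged by the authors over normalized libraries. From these tables the counts of calls at 20 °C were used. Genes named are metl-5, cyp-29A3, all called genes, the 12 next in p, up to 2 members of each described list with the smallest p, genes with reads in 1 strain alone, and others said to be chosen after seeing their values. The members and the 47 gene lists were chosen with earlier results of these data known.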

Additional observations from a re-analysis of the deposited data

How the results depend on the processing

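The count of 15 calls depends on the replicate block. Without it edgeR called 4 genes, and DESeq2 called 9. With 1 block shared over both temperatures edgeR called 8, with the 20 °C libraries alone 43 (4 without the block there), with DESeq2 and the block 26, and without a filter on low counts 88. Leaving out 1 pair gave 7 to 19 calls, of which 7 (without pair 2), 9 (without pair 3) and 14 (without pair 1) were among the 15. Leaving out 1 library without the block gave 4 to 5. RLE scaling (15), upper-quartile scaling (10), limma-voom (21), a mean CPM of at least 1 (12) and removal of the length trend (14) stayed within 1.5 times. The cause of these shifts was not tested. The shared block lost hpo-15, sax-2, smd-1, C37C3.2, col-94, nspa-5 and nspd-6, with adjusted p of 0.106, 0.915, 0.51, 0.385, 1, 0.347 and 1 in that order of genes. Upper-quartile scaling lost smd-1, C37C3.2, col-94, nspa-5 and nspd-6, and a mean CPM of at least 1 lost smd-1, col-94 and nspd-6. The calls of F56A4.3, ZK228.3, ZK228.4 and cTel55X.1 were kept in all 21 alternatives, and those of col-93 and F42A9.6 in the 12 with a block. Without the block the adjusted p was 0.0502 for cyp-29A3, 0.0813 for F42A9.6, 0.11 for hpo-15 and 0.139 for metl-5. It was above all of these values for col-93, sax-2, smd-1, C37C3.2, col-94, nspa-5 and nspd-6. With limma-voom the adjusted p was 0.147 for cyp-29A3. Among genes and lists named in the text, 1383 alternative values kept their direction and side of the threshold, 128 lost a call, 46 gained one and 12 medians moved beyond the spread of the pairs. The sign of pal-1, which was not called, turned to −0.0143 without the block and to −0.027 with DESeq2 without the block. Leaving out 1 pair put it between −0.185 (without pair 1) and 0.156. Without the block it was −0.168 without metl-5 replicate 2, −0.222 without WT replicate 1, −0.0307 without WT replicate 3 and up to 0.288 without another library. Genes under about 1 CPM, cyp-29A3 in metl-5 worms among them, are limited by counting.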

Other observations

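A further 6 genes had 0 counts in all 3 libraries of one strain at 20 °C and at least 4 in each library of the other, too few for a fold. In metl-5 worms alone these were mks-6 (6, 4 and 7 counts), F32H2.12 (4, 6 and 14), paml-2 (6, 5 and 4) and fbxa-5 (5, 6 and 12). W09C5.12 (6, 5 and 4 counts) and Y56A3A.41 (6, 4 and 6) had reads in WT worms alone. At 37 °C all 6 had reads in at least 1 library of each strain, unlike ZK228.3, ZK228.4 and cTel55X.1.

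Of the 15 called genes 7 lie on chromosome V, 4 on III, 2 on IV and 1 each on I and X, while 0 lie on II. Tested genes numbered 2505 on V, 2143 on III, 2270 on IV, 2239 on I, 1823 on X and 2303 on II. The share with an unadjusted p under 0.05 was 3.46% on X and between 4.82 and 5.77% on the other nuclear chromosomes.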
